A study of Homo sapiens with 7 samples.

Results

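Around the promoters of HCT116 cells, a human colorectal carcinoma line, the relation of H3K4me1 to H3K4me3 was examined in 5 kb on each side of the transcription start sites (TSS) of 20144 protein-coding genes. The peak lists of 2 of the 7 PIXUL-ChIP-seq libraries in the series were compared, 1 for each mark. PIXUL is an instrument that shears crosslinked chromatin by ultrasound in the wells of a culture plate, and each library came from the chromatin of a single well of about 200000 HCT116 cells, sonicated for 6 min in 100 µl. The labels name no treatment, and by their labels the libraries differ in the antibody. With 1 library per mark there were no replicates, so no test between conditions was made, and the 95% Wilson intervals given with the shares cover counting error over genes only. Genes next to each other can share a peak and are not independent.

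Methylation of lysine 4 of histone H3 comes in steps of 1, 2 or 3 methyl groups on the same residue. H3K4me3 is the mark of active and poised promoters, placed mostly by the SETD1A, SETD1B, KMT2A and KMT2B complexes, and it covers the first nucleosomes downstream and upstream of a TSS. H3K4me1 is placed largely by KMT2C and KMT2D, is known as the mark of enhancers, and at strong promoters often sits on either side of the H3K4me3 domain. A single lysine carries only 1 of these states at a time. Peaks are called over the chromatin of many cells and over stretches of many nucleosomes, so overlapping peaks do not show both marks on the same nucleosome.

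An H3K4me3 peak reached into the window of 12397 genes, 61.5% of all coding genes, and an H3K4me1 peak into that of 11546 genes, 57.3%. A peak was counted when it passed the limits of the study. For H3K4me1 these ask for more than 2-fold enrichment compared with input at a q-value under 1e-03, and for H3K4me3 for more than 5-fold at a q-value under 1e-10. Both marks reached the window of 10133 genes (50.3%), H3K4me1 alone that of 1413 (7.01%) and neither mark that of 6334 (31.4%). Each of the 12397 genes was then assigned by its nearest H3K4me3 peak. In 5430 genes, 43.8% of the 12397, a single H3K4me1 peak spanned the whole H3K4me3 peak (95% interval 42.9 to 44.7%), and these genes are called contained here. In 4557 genes (36.8%, 35.9 to 37.6%) H3K4me1 in the window lay outside the H3K4me3 peak, touching it or not, without spanning it. This is called flanking. In 2256 genes, 18.2%, no H3K4me1 peak reached the window or the H3K4me3 peak (17.5 to 18.9%). In the remaining 154 genes H3K4me1 lay inside the H3K4me3 peak only. Because neighbouring genes can share a promoter, the 12397 genes rest on 10609 different H3K4me3 peaks.

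The 250 bases upstream of the TSS of 3 genes are shown to make the classes with H3K4me3 concrete, from hg19 and read 5′ to 3′ on the strand of the gene, with each CpG dinucleotide in capitals because CpG content differed between promoters with and without H3K4me3, as given below. EGR1 (chr5:137800918-137801167, plus strand), the serum-inducible zinc finger factor assayed throughout the study, has its H3K4me3 peak contained in H3K4me1. RPS19 (chr19:42364075-42364324, plus strand), a protein of the small ribosomal subunit, has H3K4me1 on both sides. MSL1 (chr17:38277974-38278223, plus strand), a subunit of a histone acetyltransferase complex, had the highest H3K4me3 fold enrichment among genes with no H3K4me1. None of these stretches overlaps an annotated exon.
EGR1: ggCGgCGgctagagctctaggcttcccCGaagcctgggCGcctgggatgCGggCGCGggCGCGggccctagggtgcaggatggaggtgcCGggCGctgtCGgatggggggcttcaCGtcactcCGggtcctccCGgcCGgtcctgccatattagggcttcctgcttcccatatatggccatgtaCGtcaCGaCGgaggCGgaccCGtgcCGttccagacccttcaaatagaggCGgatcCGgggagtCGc
RPS19: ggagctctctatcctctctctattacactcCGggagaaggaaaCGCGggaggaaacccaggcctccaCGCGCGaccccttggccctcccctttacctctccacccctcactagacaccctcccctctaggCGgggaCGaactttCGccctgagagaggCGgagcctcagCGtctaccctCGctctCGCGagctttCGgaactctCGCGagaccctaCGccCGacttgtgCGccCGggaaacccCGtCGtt
MSL1: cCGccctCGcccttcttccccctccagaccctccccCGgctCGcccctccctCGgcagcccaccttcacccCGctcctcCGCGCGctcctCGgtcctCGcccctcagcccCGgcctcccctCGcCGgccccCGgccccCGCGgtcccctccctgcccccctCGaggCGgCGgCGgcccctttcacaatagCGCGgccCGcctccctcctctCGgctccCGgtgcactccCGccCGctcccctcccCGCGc
These 3 promoters hold 25, 23 and 30 CpG dinucleotides in the order EGR1, RPS19 and MSL1. The ratio of observed to expected CpG in these bases is 0.863, 0.968 and 0.987. None of the 3 stretches holds the AP-1 heptamer TGACTCA on either strand.

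Read by strand across all coding genes, H3K4me3 was centred on the TSS and skewed downstream, whereas H3K4me1 was a broad plateau with a shoulder upstream. H3K4me3 covered 58.2% of TSS bases (95% interval 57.5 to 58.9%), 21.6% of genes at -1000 bp and 43.8% at +1000 bp. H3K4me1 covered 33.4% of genes at the TSS (32.7 to 34.1%), 28.8% at -1000 bp and 32.2% at +1000 bp, and was highest at -500 bp with 37.8%. More genes were covered by H3K4me3 than by H3K4me1 at each of the 18 offsets from -600 to +1100 bp and at no other offset. At -2000 bp H3K4me1 covered 14.1% of genes and H3K4me3 3.83%, and at +2000 bp 17.4% and 4.16%. The promoters of plus and minus strand genes gave nearly the same curves, which differed by at most 1.11 percentage points for H3K4me1 and 1.14 for H3K4me3 over the 101 offsets.

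**Figure D1:**
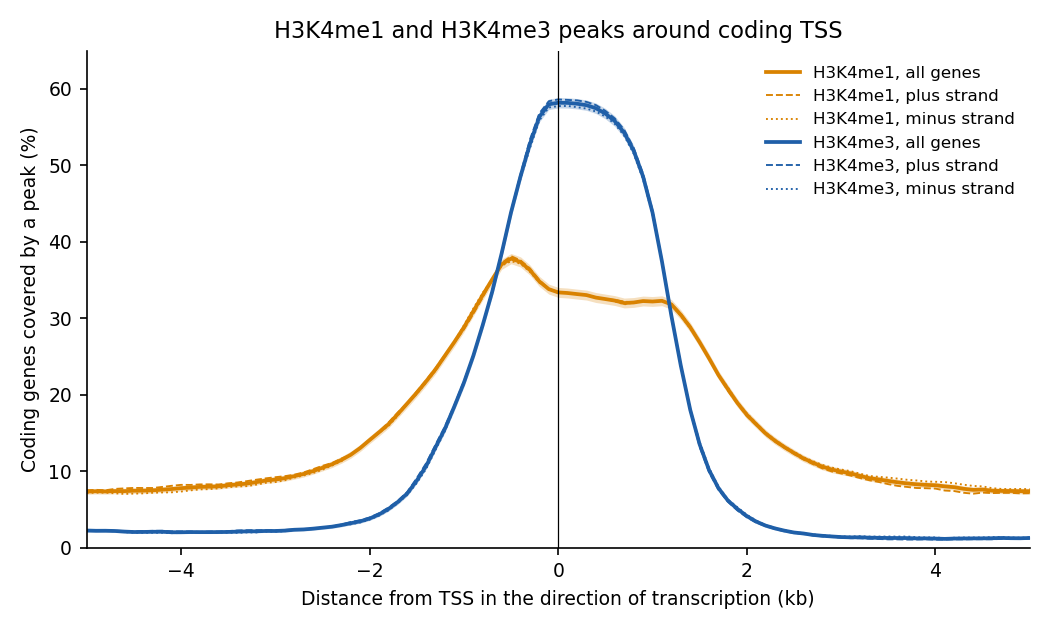
Share of the 20144 coding genes whose base at each distance from the TSS (x axis, kb, in the direction of transcription) lies in an H3K4me1 (orange) or H3K4me3 (blue) peak, with shaded 95% Wilson intervals and with plus and minus strand genes as dashed and dotted lines. H3K4me3 peaks at 58.2% on the TSS, while H3K4me1 stays between 32.0 and 37.8% from -500 to +1100 bp.

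The average curve of H3K4me1 combined promoters with opposite layouts. In contained genes, H3K4me1 covered the TSS in 5190 of 5430 (95.6%) and H3K4me3 in 92.2%. Away from the TSS H3K4me3 coverage fell sooner, to 52.1% at -600 bp and 18.1% at +1500 bp, where H3K4me1 still covered 88.6% and 59.0% of these genes. In the 1563 genes with H3K4me1 on both sides (12.6% of the 12397), coverage was 65.6% at -1100 bp, 7.29% at +100 bp and 72.9% at +1500 bp, while H3K4me3 covered 98.3% of these TSS. In the 1766 genes flanked upstream only (14.2%), H3K4me1 was highest at -600 bp (60.7%), and in the 1228 flanked downstream only (9.91%) at +1200 bp (65.3%). H3K4me1 covered the TSS itself in 26.2% of genes flanked upstream only and 23.1% of those flanked downstream only, against 7.42% with both sides flanked. With a slack of 200 bp at the edges, 6025 genes counted as contained, 1436 as flanked upstream only and 1025 as flanked downstream only. Of the 4557 flanked genes, H3K4me1 overlapped at least 1 edge of the H3K4me3 peak in 4348 (95.4%), so that the marks interlocked more often than they stood apart. In genes flanked on both sides, the upstream edge was overlapped in 92.4% and the downstream edge in 93.4%. The classes were alike on both strands, with 2775 of 6304 plus strand and 2655 of 6093 minus strand genes contained.

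**Figure D2:**
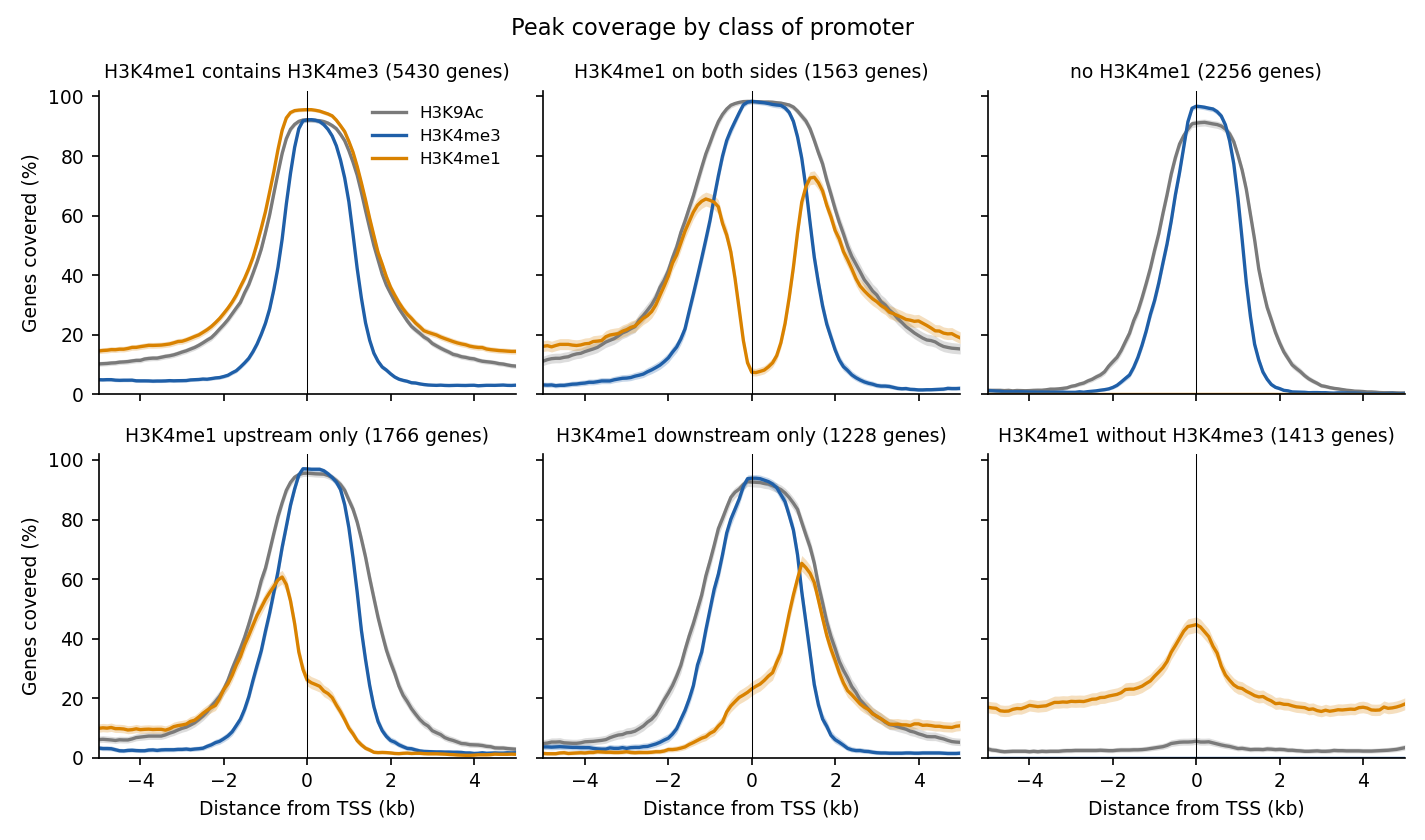
Share of genes covered by H3K4me1 (orange), H3K4me3 (blue) and H3K9Ac (grey) at each distance from the TSS (x axis, kb) for 6 classes of promoter, with shaded 95% Wilson intervals and the number of genes above each panel. H3K4me1 drops to 7.29% at +100 bp where it flanks both sides and reaches 95.6% at the TSS where it contains the H3K4me3 peak. The classes were set by these same H3K4me1 and H3K4me3 peaks, so only the H3K9Ac curves are independent of them.

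In contained genes the H3K4me1 peak exceeded the H3K4me3 peak by a similar length on each side. The median extension was 449 bp upstream (middle 50% of genes 254 to 941 bp) and 474 bp downstream (245 to 1068 bp), and the longer arm was downstream in 2761 of the 5430 genes (50.8%). The median H3K4me3 peak of these genes was 1860 bp wide and the H3K4me1 peak 3113 bp. Where H3K4me1 flanked both sides, the TSS of 1436 of 1563 genes (91.9%) lay in a gap of H3K4me1 bounded on either side. That gap had a median length of 1606 bp, from -558 to +1050 bp in the medians of its edges, and it lay wholly inside the H3K4me3 peak in 1271 of the 1436 genes (88.5%). The shortest distance between any neighbouring H3K4me1 peaks in the list was 1201 bp, so a shorter H3K4me1-free stretch over a TSS cannot be seen and such a gene counts as contained.

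**Figure D3:**
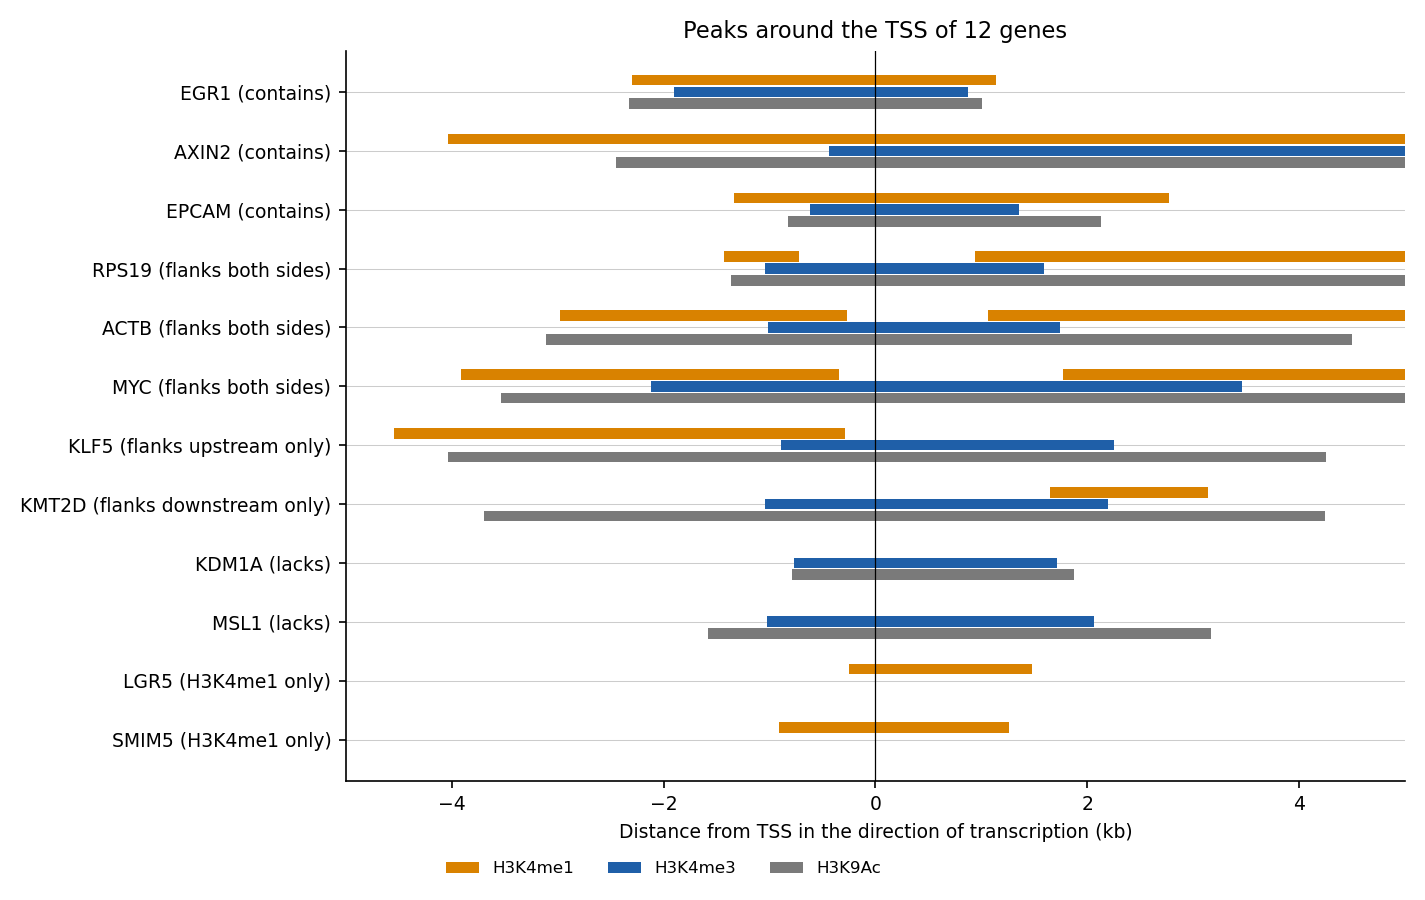
Peaks of H3K4me1 (orange), H3K4me3 (blue) and H3K9Ac (grey) past the study's limits within 5 kb of the TSS of 12 genes (x axis, kb in the direction of transcription), with the class of each gene on the y axis. The H3K4me1 bar spans the H3K4me3 bar in EGR1, AXIN2 and EPCAM, is interrupted over the TSS in RPS19, ACTB and MYC, and stands alone in LGR5 and SMIM5.

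The shares of contained genes and of genes flanked on both sides varied more over quartiles of H3K4me3 width than over quartiles of H3K4me3 fold enrichment. Among the narrowest quartile of H3K4me3 peaks (450 to 1624 bp), 56.2% of genes were contained and 1.61% flanked on both sides. Among the widest quartile (2584 bp and more), 29.1% were contained (27.5 to 30.7%) and 27.7% flanked on both sides. The share with no H3K4me1 fell from 24.8% to 10.1% over the same quartiles. By fold enrichment, the share with no H3K4me1 was 24.5% in the lowest quartile (761 of 3100 genes) and 10.3% in the highest (320 of 3099), and genes flanked on both sides numbered 170 and 590. The share of contained genes did not run one way with fold enrichment, being 49.5%, 44.1%, 37.4% and 44.3% from the lowest to the highest quartile. A wider peak is harder to span. A peak narrower than 1201 bp, the shortest H3K4me1 gap in the list, cannot have H3K4me1 over both edges without being spanned. Width and class are therefore partly tied by construction. Median H3K4me3 fold enrichment was 21.7 in contained genes, 25.6 in those flanked on both sides and 20.3 in those with no H3K4me1, with middle 50% ranges that overlap (16.2 to 27.8, 21.3 to 30.4 and 15.0 to 25.2).

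Immediate early genes, which code mostly for transcription factors induced within minutes by serum, were mostly contained. Of 25 listed, 24 had an H3K4me3 peak in the window, and 18 of the 24 were contained, against 43.8% of all genes with H3K4me3. The EGR1 TSS had H3K4me1 from -2298 to +1143 bp around H3K4me3 from -1897 to +872 bp at a fold enrichment of 16.0. FOS, a partner of JUN in AP-1, had the same arrangement, with H3K4me1 from -2606 to +1464 bp and H3K4me3 from -1905 to +932 bp. At JUNB, a related AP-1 subunit, the H3K4me1 peak was far wider, from -9935 to +5704 bp around H3K4me3 from -2539 to +2878 bp. The contained H3K4me3 peaks of this list were wide, with a median of 2890 bp against 1860 bp over all contained genes. Of the 17 immediate early genes in the widest quartile of H3K4me3 peaks, 11 were contained, where 29.1% of all genes of that quartile were.

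The exceptions among the immediate early genes were few. KLF6 and IER3 were flanked on both sides, IER2, NR4A2 and EGR3 upstream only, and NR4A3 downstream only. NR4A3, an orphan nuclear receptor, had H3K4me1 from -3088 to +2229 bp and H3K4me3 from -3121 to +1557 bp, and so missed containment by 33 bp. EGR4 had H3K4me1 over its TSS, from -2922 to +269 bp, with no H3K4me3 peak in the window.

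Ribosomal protein genes, which are among the most strongly transcribed genes of growing cells, had the opposite layout. Of 81 listed genes, 79 had an H3K4me3 peak, and the exceptions were RPS4Y1 and RPS4Y2 on the Y chromosome, which had neither mark. Of the 79, 41 were flanked on both sides, where 12.6% of all genes were, 15 downstream only, 9 upstream only, 9 were contained and 5 had no H3K4me1. At RPS19 the upstream H3K4me1 peak ran from -1427 to -725 bp and the downstream one from +943 to +11406 bp, on either side of an H3K4me3 peak from -1040 to +1593 bp with a fold enrichment of 32.3. RPL13A, of the large subunit, had H3K4me1 from -900 to -333 bp and from +1431 to +8340 bp around the edges of H3K4me3 from -618 to +2198 bp. RPS6 counted as flanked downstream only, because its upstream H3K4me1 peak began at -1217 bp, inside an H3K4me3 peak that began at -1221 bp.

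The H3K4me3 peaks of the 41 ribosomal protein genes flanked on both sides had a median width of 3074 bp (range 2032 to 4579 bp), and the H3K4me1 gap over the TSS a median of 1733 bp (1204 to 5168 bp). The median H3K4me3 peak of the whole list was 2777 bp wide, against 2052 bp over all genes with H3K4me3. Within the widest quartile of H3K4me3 peaks, 32 of 50 ribosomal protein genes were flanked on both sides, where 27.7% of all genes of that quartile were. Within the next quartile the count was 8 of 22 against 15.7%. The housekeeping genes of a separate list of 13 were spread over the classes, with 4 flanked on both sides, 3 contained, 3 downstream only, 2 upstream only and 1 with no H3K4me1. Of all genes with H3K4me3, 12.6% were flanked on both sides, 43.8% contained and 18.2% without H3K4me1.

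Among these housekeeping genes, ACTB, cytoplasmic actin, had H3K4me1 from -2975 to -266 bp and from +1067 to +5836 bp, with H3K4me3 from -1009 to +1744 bp at a fold enrichment of 35.0. GAPDH, a glycolytic enzyme, had H3K4me1 from -3020 to -324 bp and from +1263 to +7243 bp, with H3K4me3 from -2072 to +2070 bp. At both genes H3K4me1 was interrupted over the TSS while H3K4me3 crossed it. HPRT1, an enzyme of purine salvage encoded on the X chromosome, was the member with no H3K4me1.

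**Figure D4:**
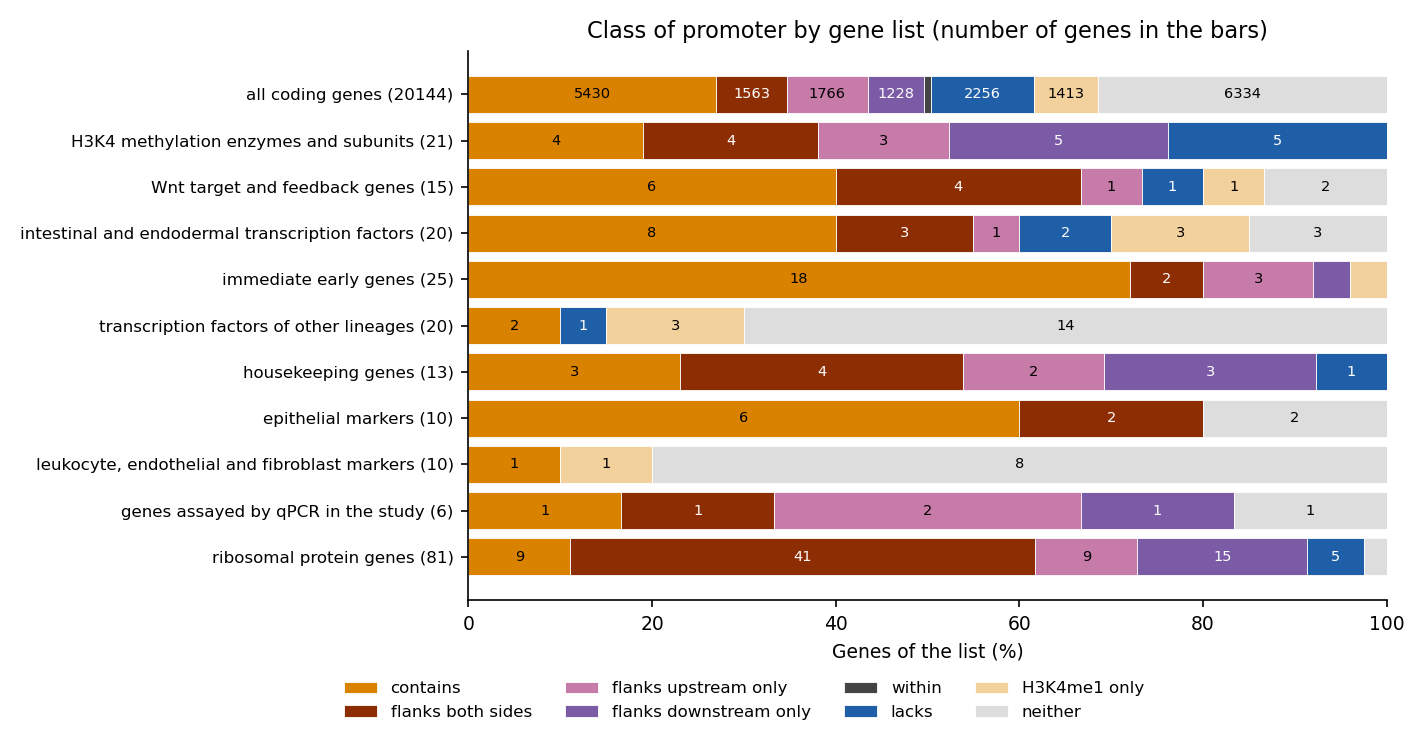
Share of genes in each class of promoter (x axis, %) for all coding genes and for 10 gene lists (y axis, with the number of genes matched), with the number of genes printed in each bar. Immediate early genes are mostly contained (18 of 25), and ribosomal protein genes mostly flanked on both sides (41 of 81).

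HCT116 cells carry an activating mutation of β-catenin, and genes of the Wnt pathway were therefore listed. Of 15 target and feedback genes, 12 had an H3K4me3 peak, of which 6 were contained, 4 flanked on both sides, 1 flanked upstream only and 1 had no H3K4me1. Over all coding genes 61.5% had H3K4me3, and of those 43.8% were contained and 12.6% flanked on both sides, so the share of contained genes in this list was near that of all genes. AXIN2, a negative regulator of the pathway, had an H3K4me3 peak from -442 to +5309 bp with a fold enrichment of 32.9, inside H3K4me1 from -4038 to +9693 bp. MYC, a growth-promoting transcription factor, was flanked on both sides, with H3K4me1 from -3916 to -342 bp and from +1771 to +9916 bp and H3K4me3 from -2121 to +3462 bp. LGR5, a receptor for R-spondins that marks intestinal stem cells, had an H3K4me1 peak from -244 to +1478 bp (fold enrichment 8.29) and no H3K4me3. ASCL2, a stem cell transcription factor, had a weak H3K4me3 peak downstream of the TSS, from +820 to +1717 bp (7.60), and no H3K4me1. LEF1 and APCDD1 had neither mark.

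Transcription factors of the intestine and endoderm were also spread over the classes. Of 20 listed, 14 had an H3K4me3 peak (61.5% of all coding genes did) and 8 of these were contained (43.8% of all genes with H3K4me3), among them CDX2, SOX9, ELF3, GATA6 and ATOH1. With so few genes, neither count stands far from the share of all genes. CDX2, a regulator of intestinal identity, had H3K4me3 from -267 to +1780 bp (fold enrichment 31.6) inside H3K4me1 from -581 to +2747 bp. KLF5, expressed in crypt cells, was flanked upstream only, by H3K4me1 from -4541 to -283 bp. HNF4A, a regulator of absorptive cells, had a weak H3K4me3 peak from -364 to +553 bp (7.92) and no H3K4me1 within the window of its canonical TSS. CDX1, ISX and NR5A2 had H3K4me1 only, and for CDX1 that peak lay from -5617 to -4237 bp, away from the TSS. FOXA2 and GATA4 had neither mark.

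Promoters of genes of other lineages carried H3K4me3 seldom. Of 20 transcription factors of muscle, blood, neural and heart lineages, 3 had an H3K4me3 peak (61.5% of all coding genes did), 3 had H3K4me1 only (MYOD1, SPI1 and NEUROD1) and 14 had neither mark. Over all coding genes 7.01% had H3K4me1 only and 31.4% had neither mark. Markers of epithelial cells carried H3K4me3 in 8 of 10 genes. Of these 8, 6 were contained (EPCAM, CDH1, KRT18, CLDN3, CLDN4 and CLDN7), and KRT8 and KRT19 were flanked on both sides. Of all genes with H3K4me3, 43.8% were contained and 12.6% flanked on both sides. CEACAM5 and VIL1 had neither mark. EPCAM, an epithelial adhesion molecule, had H3K4me3 from -615 to +1357 bp (fold enrichment 30.4) inside H3K4me1 from -1333 to +2776 bp. Of 10 matched leukocyte, endothelial and fibroblast markers, 1 had an H3K4me3 peak (COL1A1, a collagen chain, at a fold enrichment of 9.21) and 8 had neither mark. PECAM1 was not matched.

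The genes of the enzymes that write and erase these marks had H3K4me3 in 21 of 21 cases, where 61.5% of all coding genes did, and were spread over the classes. They were contained in 4 cases, flanked on both sides in 4 and without H3K4me1 in 5, beside 43.8%, 12.6% and 18.2% of all genes with H3K4me3. KMT2A, SETD1A, ASH2L and WDR5 were flanked on both sides, KMT2D, SETD1B, CXXC1, DPY30 and HCFC1 downstream only, and KMT2B, KMT2C and KDM1B upstream only. KMT2A had H3K4me1 from -1622 to -662 bp and from +1007 to +2689 bp, and H3K4me3 from -1540 to +1503 bp. MEN1, NCOA6, PAXIP1 and the H3K4me3 demethylase gene KDM5B were contained. The 5 genes with no H3K4me1 included 4 demethylase genes, KDM1A, KDM5A, KDM5C and KDM6A, of which KDM6A removes methyl groups from lysine 27, and RBBP5, a core subunit of the writers. KDM5C and KDM6A lie on the X chromosome. KDM1A, which removes mono- and dimethylation from lysine 4, had H3K4me3 from -768 to +1718 bp at a fold enrichment of 25.1.

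The 6 human genes with qPCR primers in the study fell into different classes in these HCT116 lists. The study assayed TBX3 and POU5F1 in human embryonic stem cells, and RPL32 only as a reference transcript. EGR1 was contained, TBX3, a T-box factor, was flanked on both sides with a gap of 1867 bp, NR4A3 was flanked downstream only, and RPL32 and UBE2B upstream only. POU5F1, a factor of pluripotent cells, had neither mark.

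The most extreme members of each class were taken by rank. The highest H3K4me3 fold enrichment among contained genes was 61.7, at the shared promoter of FBXL6 and SLC52A2. Among genes flanked on both sides it was 52.2 at UBE2G1, a ubiquitin-conjugating enzyme, with H3K4me1 free from -495 to +989 bp. Among genes with no H3K4me1 it was 45.1 at MSL1, with H3K4me3 from -1025 to +2063 bp, and the next were TRAPPC10 (45.0) and NSMCE4A (43.2). These genes were picked as the highest of 2256, whose median was 20.3 against 22.4 over all genes with H3K4me3.

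The widest H3K4me1 peak that contained an H3K4me3 peak measured 85692 bp, at PDP1. The widest H3K4me3 peak of the comparison, 14244 bp, was shared by HOX genes: it counted as flanked upstream only from the TSS of HOXA10, from which it ran from -451 to +13792 bp, and H3K4me1 lay within it as read from HOXA9. ID2, an inhibitor of helix-loop-helix factors, had the widest H3K4me3 peak among genes flanked on both sides, at 8457 bp. The widest H3K4me1 gaps over a TSS in that class were 7965 bp at TMEM230, 6989 bp at NSMCE1 and 6720 bp at ATP6V0B, all wider than the H3K4me3 peaks inside them (2387, 1767 and 1808 bp).

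Genes with H3K4me1 only differed from those with H3K4me3 in promoter sequence and in other marks. In 632 of the 1413 genes (44.7%) the H3K4me1 peak covered the TSS itself. The highest fold enrichment over such a TSS was 17.4 at S1PR4, a sphingosine-1-phosphate receptor, from -3198 to +263 bp, followed by 14.2 at UNC13D, which acts in granule exocytosis, and 11.1 at SMIM5, which encodes a small membrane protein, from -913 to +1259 bp. The widest was 41291 bp at PRKACB, a catalytic subunit of protein kinase A. An H3K9Ac peak lay within 1 kb of the TSS of 6.58% of the 1413 genes (5.40 to 8.00%), against 94.3% of genes with H3K4me3 and 0.0631% of genes with neither mark.

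The CpG content of the promoters differed more between those with and without H3K4me3 than between those with H3K4me1 only and those with neither mark. The median ratio of observed to expected CpG in 500 bp on each side of the TSS was 0.785 in contained genes, 0.828 in genes flanked on both sides and 0.775 in genes with no H3K4me1, but 0.331 in genes with H3K4me1 only and 0.317 in genes with neither mark. A ratio above 0.6, a usual limit for CpG islands, was found in 86.4%, 94.9% and 90.0% of the first 3 of these classes and in 28.0% and 27.9% of the last 2, and in 65.9% of all coding genes. Among the 632 genes with H3K4me1 alone over the TSS itself the median ratio was 0.369, and 33.7% were above 0.6 (30.1 to 37.5%), against 26.8 to 29.0% as the interval for genes with neither mark. G+C content differed among promoters with H3K4me3 in another way, with medians of 66.4% in contained genes, 65.4% in those flanked on both sides and 60.4% in those with no H3K4me1.

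Short motifs were counted as exact letters on both strands from 250 bp upstream to 50 bp downstream of the TSS, and a match is a description of the sequence and not a binding site. The AP-1 heptamer (TGACTCA) was found in 11.6% of promoters with H3K4me1 alone over the TSS (9.29 to 14.3%), in 2.76% of contained and 1.79% of both-side flanked promoters, and in 3.57% of all coding genes. In promoters with neither mark the AP-1 share was 5.0% (4.5 to 5.6%). The ETS core (CCGGAAG) was found in 15.4% of contained promoters (14.4 to 16.4%), 23.4% of those flanked on both sides, 26.8% of those flanked downstream only and 25.1% of those with no H3K4me1, against 14.0% of all coding genes. It was rare both in genes with H3K4me1 only (2.48%) and in genes with neither mark (3.9%). The GC box (GGGCGG) was found in 81.8%, 78.0% and 70.2% of contained, both-side flanked and H3K4me1-free promoters, and in 61.0% of all. The TATA hexamer TATAAA was found in 4.59% of contained promoters, 13.0% of promoters with H3K4me1 only, 19.2% of promoters with neither mark and 9.81% of all. The NRF1 core GCGCATGCG was found in 3.30% of contained promoters and 5.23% of those with no H3K4me1 (2.69% of all), and the E-box CACGTG in 11.4% and 8.51% (8.75% of all).

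The other marks were read at the same promoters, none of which entered the classes. H3K9Ac, an acetylation of active promoters, lay within 1 kb of the TSS of 93.6% of contained genes, 99.2% of genes flanked on both sides (98.7 to 99.6%) and 91.9% of genes with no H3K4me1, against 58.5% of all coding genes. CTCF, an insulator and loop anchor protein, lay within 1 kb in 23.7% of contained genes (22.6 to 24.9%), 16.3% of those flanked on both sides (14.6 to 18.2%) and 12.3% of those with no H3K4me1 (11.0 to 13.7%), against 13.6% of all. H3K36me3, a mark of transcribed gene bodies, was read from all deposited peaks because few passed the limits. A peak lay in the gene for 76.9% of contained genes, 94.6% of those flanked on both sides (93.3 to 95.6%) and 82.4% of those with no H3K4me1, against 56.3% of all coding genes and 82.3% of all genes with H3K4me3. The median gene lengths of the 3 classes were 26.0 kb, 29.1 kb and 44.1 kb in that order. H3K27me3, the Polycomb mark, was rare within 1 kb of these TSS, in 68 contained genes (1.25%), 3 genes flanked on both sides (0.192%) and 2 genes with no H3K4me1 (0.0887%), against 1.22% of all coding genes. With all deposited H3K27me3 peaks the shares were 6.26%, 0.512% and 1.42%, against 9.61% of all coding genes and 20.2% of genes with neither mark.

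**Figure D5:**
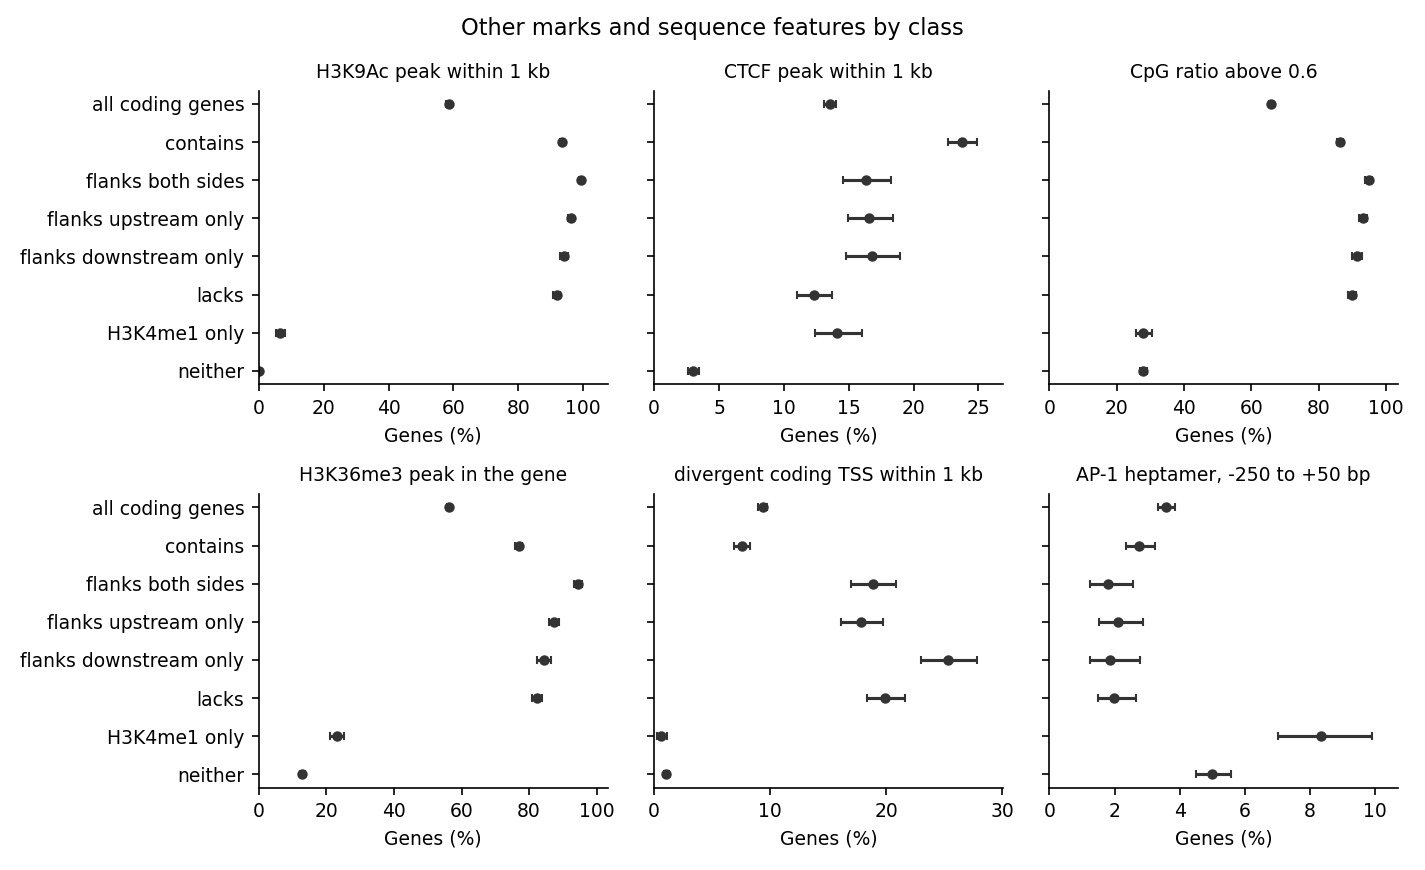
Share of genes (x axes, %, points with 95% Wilson intervals) with an H3K9Ac or CTCF peak within 1 kb of the TSS, a CpG ratio above 0.6, any deposited H3K36me3 peak in the gene, a divergent coding TSS within 1 kb, or the AP-1 heptamer, for all coding genes and 7 classes of promoter (y axis). Contained promoters have the highest CTCF share (23.7%) and promoters with H3K4me1 only the highest AP-1 share (8.35%).

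The neighbourhood of a promoter also moved with its class. A coding gene transcribed in the opposite direction started within 1 kb upstream in 14.6% of genes with H3K4me3 and 9.36% of all coding genes. The share was 7.57% in contained genes, 18.9% in genes flanked on both sides and 19.9% in genes with no H3K4me1. It was 17.8% in genes flanked upstream only and 25.3% in those flanked downstream only. Of the 1812 genes with H3K4me3 and such a neighbour, 22.7% were contained (20.8 to 24.7%) and 24.8% had no H3K4me1, against 47.4% (46.5 to 48.4%) and 17.1% of the 10585 without. The upstream edge of the H3K4me3 peak lay at a median of -1421 bp with a divergent neighbour and -702 bp without, while the downstream edge lay at +1159 and +1218 bp. The downstream edge fell in the first intron in 70.5% of genes and in the first exon in 3.33%.

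Chromosome X stood apart from the autosomes. Of its 386 genes with H3K4me3, 67.6% had no H3K4me1 (62.8 to 72.1%) and 6.74% were contained, against 16.6% and 45.0% of the 12011 genes on autosomes. Among the autosomes the share of contained genes ranged from 28.4% on chromosome 4 to 61.5% on chromosome 17. The median H3K4me3 fold enrichment on X was 12.8, against 22.7 on the autosomes. Of the deposited H3K4me1 peaks, 47.5% on X and 64.2% on the autosomes passed the limits, and with all deposited peaks 38.3% and 2.06% of genes with H3K4me3 had no H3K4me1. The part of peak strength in this difference was not tested.

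The class with no H3K4me1 was the one that changed by the largest factor when the limits were dropped. With all deposited peaks of both marks it held 428 genes (3.30% of 12988) in place of 2256, and 408 of the 2256 became flanked on both sides and 628 contained. ASCL2, HNF4A, PAX6, KDM1A and MSL1 were among those that then had H3K4me1. Of the 5430 contained genes, 5423 stayed contained, and of the 1563 flanked on both sides, 1557 stayed so. Dropping the limits only adds peaks, so the H3K4me1 peaks that had placed genes in these classes were still in the list. Such a gene could change class only through an added peak, and both counts therefore had little room to differ. With the H3K4me3 limits applied to H3K4me1, whose median fold enrichment in its list was 4.60 against 21.1 for H3K4me3, 10910 genes had no H3K4me1 and 967 were contained. Genes with no H3K4me1 are therefore genes with no peak past the limits, which does not show that the mark was absent.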

How the data were processed

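Reads had been mapped by the authors with BWA 0.7.12 (hg19), and MACS2 in its broad mode (cutoff 0.1) gave 1 peak list for each library, with no pooling stated. The submitters' processing notes also name MACS 1.4.2, SAMtools 0.1.19 and bcl2fastq 2.20.0.442. The paired or single read mode is stated differently in the sources. For each peak the authors deposited a fold enrichment, which is a ratio on a linear scale, compared with input as the study states it, a −log10 p-value and a −log10 q-value, and a score made from the q-value that was not used here. No library depth is given in the lists, and depth can change how many peaks are called and how wide they are.

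The study's limits were applied to these values (those of H3K4me1 also to H3K27me3, and those of H3K4me3 to H3K9Ac, H3K36me3 and CTCF). The GENCODE 44 annotation lifted to hg19 supplied 20144 protein-coding genes of chromosomes 1 to 22, X and Y. The 13 mitochondrial genes and 19 Y copies of X genes were left out. The TSS was that of the canonical transcript in 19863 genes and the 5′ end of the gene in 281. Coverage was read at 101 offsets, every 100 bp, by strand. A gene was contained when 1 H3K4me1 peak spanned its nearest H3K4me3 peak, and flanked when at least 1 base of H3K4me1 in the window lay outside it. Shares carry 95% Wilson intervals. The classes and profiles were tested on simulated data, and the window counts were checked against bedtools 2.31.1, with 0 genes of difference for either mark.

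Sequences were read from the hg19 genome. Python 3.11.15 with numpy 2.4.6, pandas 2.3.3, matplotlib 3.10.9 and pyfaidx 0.9.0.4 and samtools 1.23.1 were used. Gene lists and classes were chosen with earlier results of these data known. The genes to be named were the list members and, in each class, the 3 with the highest fold enrichment, those with the widest peak of each mark and the 3 with the widest H3K4me1 gap, leaving out clone and read-through names. Not all of them are printed, and a few list members and 1 example sequence are not reported here. H3K27Ac was not analysed here.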

Additional observations from a re-analysis of the deposited data

How the results depend on the processing

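No paired analysis was possible because no mark was measured in more than 1 library. The depth of the libraries is unknown and limits which H3K4me1 peaks passed, so that the shares describe these lists only. Of 230 values recomputed under 13 alternatives, 174 stayed within 1.5 times the reported count or inside the 95% interval of the reported share or median. Those that left it are given here, and why they moved was not tested. The alternative without chromosome X and the reading of H3K36me3 and H3K27me3 from all deposited peaks were chosen after seeing the data.

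With all deposited peaks, 3497 genes were flanked on both sides and 428 had no H3K4me1. The count of contained genes, 6508, stayed within its range, but their share was 50.11% of genes with H3K4me3, in place of 43.8%. H3K4me1 coverage was 34.2%, 39.2% and 40.1% at -1000, 0 and +1000 bp, H3K4me3 covered 60.0% of TSS, and the median extensions were 435 bp upstream and 451 bp downstream. H3K9Ac, CTCF and a CpG ratio above 0.6 were then found in 89.1%, 22.6% and 83.7% of contained genes and in 63.6%, 7.71% and 79.0% of genes with no H3K4me1. Of the gene lists, those of H3K4 methylation enzymes then had 7 genes flanked on both sides and 2 with no H3K4me1, the ribosomal protein genes 2 with no H3K4me1, the Wnt genes, the intestinal factors and the factors of other lineages 0 each, and the genes assayed by qPCR 3 flanked on both sides. With the H3K4me1 limits for both marks, H3K4me3 covered 59.7% of TSS.

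With the H3K4me3 limits for both marks, 967 genes were contained, 34 flanked on both sides, 317 upstream only and 161 downstream only, 8 had H3K4me1 within the peak, 10910 had no H3K4me1 and 302 had H3K4me1 only. H3K4me1 coverage was 4.99%, 5.79% and 5.004% at the 3 offsets, and the median extensions 807 and 870 bp.

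From the 5′ end of the gene, H3K4me1 coverage at -1000 bp was 25.4%, and H3K4me3 coverage was 17.5% there and 53.4% at the TSS. Among genes with no other coding TSS within 10 kb, which are fewer by construction, 900 were flanked on both sides, 1122 upstream only and 687 downstream only, 95 had H3K4me1 within the peak and 1492 had none. Their H3K4me1 coverage was 25.9%, 32.6% and 29.3%, their H3K4me3 coverage 13.9%, 54.2% and 41.0%, and their median extensions 419.5 and 452 bp. With H3K4me3 required within 1 kb of the TSS, H3K9Ac was found in 97.7%, 99.7% and 93.9% of contained, both-side flanked and H3K4me1-free genes, and a CpG ratio above 0.6 in 90.4% of the first and 91.4% of the last. With flanks of at least 200 bp, 740 genes had H3K4me1 within the peak only. No class count left its range with a window of 2.5 or 10 kb, with both fold limits multiplied by 1.5, with a containment slack of 200 bp or without chromosome X. That range is wider than the 95% intervals of the class shares, and some shares left those intervals. Contained genes made up 48.6% with the slack, in place of 43.8%. Genes flanked on both sides made up 10.43% with 2.5 kb and 14.86% with 10 kb, in place of 12.61%. Without chromosome X, 16.61% had no H3K4me1, in place of 18.2%. With the multiplied fold limits every class share stayed inside its interval. Joining H3K4me1 gaps of up to 1000 bp could change nothing, because the shortest gap in the list was 1201 bp. The 8 values of that alternative are among the 174 that stayed and show no stability.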

Other observations

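Gene families grouped by symbol, and chosen after their values were seen, differed in layout. Of 24 families tabulated, the zinc finger genes named ZNF had no H3K4me1 in 142 of 361 genes with H3K4me3 (39.3%, against 18.2% of all genes with H3K4me3), with a median H3K4me3 width of 1705 bp against 2052 bp. Genes of complex I of the respiratory chain (NDUF) had no H3K4me1 in 14 of 48 (29.2%). Histone genes were flanked on both sides in 23 of 57 (40.4%) and splicing factor genes (SNRP, SF3, SRSF and HNRNP) in 20 of 53 (37.7%), against 12.6% of all, and proteasome subunit genes in 12 of 47 (25.5%). RNA polymerase subunit genes (POLR) were flanked on both sides in 0 of 35 and contained in 17. Histone genes lie in clusters and can share peaks.

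Several families of developmental and epithelial genes were mostly contained where they carried H3K4me3, but keratin genes (KRT) were not. HOX genes were contained in 17 of 24, the S100A genes in 10 of 10 and the claudins in 7 of 8, against 43.8% of all genes with H3K4me3. Neighbouring genes of a family can share a peak, as HOX genes did above, so the genes counted are not independent. Keratin genes carried H3K4me3 in 5 of 55 and H3K4me1 only in 18, where 61.5% and 7.01% of all coding genes did, and of the 5 with H3K4me3, 1 was contained, 2 were flanked on both sides and 2 had no H3K4me1. Olfactory receptor genes carried H3K4me3 in 3 of 415 and neither mark in 403, where 31.4% of all coding genes had neither.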
